A study of Homo sapiens with 20 samples.

Results

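The complement genes described here are 9 of the 43366 genes in the count table: the proteases C1R and C1S and their inhibitor SERPING1, the central component C3, the factors CFB and CFI, and the membrane regulators CD46, CD55 and CD59. They were chosen by name, by a rule that uses no measured value but was made with earlier results of these data known, and all 9 had a row in the table. Their mRNA was counted in 20 RNA-seq libraries of U2OS, a human osteosarcoma cell line. There were 5 wild-type (WT) clones and 5 clones labelled as knockouts (KO) of ZBTB48, a zinc finger protein that binds telomeres and some promoters, and each clone gave 1 untreated library and 1 library after 24 h with 250 U/ml interferon-γ (IFNγ). The study asked how ZBTB48 alters the transcription that IFNγ induces, so the comparisons are treated against untreated clones of a genotype, WT against KO within a treatment, and the difference between both responses. Every replicate was a clone of 1 cell line, so differences between clones of a group are part of the error, and the spread across patients or tissues was not measured.

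Complement is a cascade of plasma and cell surface proteins that marks foreign particles and damaged cells for removal. In the classical pathway the proteases C1r and C1s, bound to C1q, cleave C4 and C2, and in the alternative pathway factor B joins with deposited C3b, so that both routes build enzymes that cleave C3. Host cells are protected by the serpin C1 inhibitor, by factor I, which inactivates C3b and C4b with cofactors such as CD46, by CD55, which speeds the decay of the C3-cleaving enzymes, and by CD59, which blocks the membrane attack complex. Most plasma complement is made by the liver, and many other cells make some of the components locally.

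Total counts ranged from 46652288 to 72952859 per library. Values are given as CPM, counts scaled to a common library total with edgeR's TMM factors, and 3 counts came to between 0.0409 and 0.0608 CPM. The 6 markers of the osteoblast lineage summed to between 1100 and 9020 CPM per library, whereas 7 hepatocyte markers summed to at most 1.46 CPM, with TTR and FGA at 3 counts or fewer in every library. Most of the osteoblast sum was COL1A1 and SPARC, with means of 3870 and 2330 CPM in untreated WT clones. COL1A2, also on that list, reached at most 0.955 CPM, and group means of ALPL ran from 4.47 to 14.4 CPM. The summed markers of macrophages and leukocytes (8 genes, 1.53 to 5.31 CPM), endothelium (5 genes, 2.34 to 6.14 CPM) and B cells (4 genes, 0.162 to 1.30 CPM) overlapped between libraries with and without IFNγ. ZBTB48 itself stood at 8.05 to 11.7 CPM in the WT clones and at 1.27 to 5.17 CPM in the libraries labelled KO replicates 1, 2, 4 and 5. In the libraries labelled KO replicate 3 it reached 11.3 CPM untreated and 16.0 CPM after IFNγ, above every WT library under the same treatment. Whether this knockout leaves its mRNA in place or the label is wrong was not tested. The deviations of treated and untreated libraries of one clone from their group means correlated at Pearson's r of 0.69 to 0.88 over 15113 genes for 8 of the clones. For KO replicates 4 and 5 the correlation was 0.02 and 0.09 as labelled and 0.76 and 0.84 with the treated libraries exchanged, so block results and clone responses that turn on these pairs are also given with the libraries exchanged. The exchange was chosen by the agreement of these same libraries, so smaller spreads or further calls under it are not independent results. The genes share their library and are not independent points, and no p is given for these correlations.

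The treatment labels were checked with IRF1, an early target of IFNγ signalling, which was higher in each of the 10 treated libraries than in any untreated one, by a log2 fold change of 4.96 (SE 0.13) in WT and 4.72 (SE 0.33) in KO. A gene was called when edgeR's quasi-likelihood test gave a Benjamini-Hochberg adjusted p under 0.01 over all genes tested and the change exceeded 2-fold. All 9 complement genes passed the filter on low counts in every comparison.

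Promoter sequences were searched for the elements that IFNγ signalling is known to use. These are the interferon-γ activated site (GAS), TTCNNNGAA, and the interferon-stimulated response element (ISRE), which interferon regulatory factors bind, here its core of GAAA repeated after any 2 bases. The RefSeq promoter set of GRCh38.p14, with 250 bases before and 50 after each start site, holds 11 promoters for 6 of the 9 genes (C1R, CFB, CFI, CD46, CD55 and CD59), and C1S, C3 and SERPING1 are not in it. Both strands were searched. A GAS was found in 4 of the 11 promoters, 1 of C1R, that of CFB and 2 of CD59, and an ISRE core in 1, that of CFB, where 7.66% and 3.57% of the 35116 promoters in the set hold them. The 2 CD59 promoters overlap and hold the same GAS, which is thus counted in both. The telomeric repeat TTAGGG was in 3 of the 11, 1 each of C1R, CFB and CD59, and in 9.05% of the set. The 250 bases before the start site are shown 5′ to 3′ on the strand of the gene for 1 promoter with a GAS of each of these 3 genes, with the GAS and the ISRE core in capitals. C1R is shown from its second start site (chr12:7091894-7092143, minus strand), with the GAS beginning at -86.
C1R: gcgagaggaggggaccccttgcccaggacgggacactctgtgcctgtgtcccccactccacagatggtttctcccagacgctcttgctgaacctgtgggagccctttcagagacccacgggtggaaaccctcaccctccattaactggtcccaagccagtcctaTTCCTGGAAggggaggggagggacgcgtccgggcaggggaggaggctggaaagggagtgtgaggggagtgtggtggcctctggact
The CFB promoter (chr6:31945845-31946094, plus strand) has its GAS at -92 and an ISRE core, read on the opposite strand, at -140.
CFB: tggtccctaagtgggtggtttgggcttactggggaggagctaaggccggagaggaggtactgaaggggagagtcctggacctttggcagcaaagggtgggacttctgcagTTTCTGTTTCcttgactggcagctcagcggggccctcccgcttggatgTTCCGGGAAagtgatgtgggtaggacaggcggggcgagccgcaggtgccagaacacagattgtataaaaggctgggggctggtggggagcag
CD59 is shown from its first start site (chr11:33736480-33736729, minus strand), with the GAS at -128, which lies at -184 from the second start site and in neither of the other promoters.
CD59: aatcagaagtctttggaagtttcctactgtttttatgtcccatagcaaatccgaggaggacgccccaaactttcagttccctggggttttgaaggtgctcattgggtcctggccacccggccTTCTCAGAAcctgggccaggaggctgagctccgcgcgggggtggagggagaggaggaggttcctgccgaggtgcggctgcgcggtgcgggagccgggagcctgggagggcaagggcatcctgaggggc
C1R and CFB were higher after IFNγ in all 10 clones and CD59 was lower in all 10. CD55, whose promoter held none of the motifs searched, was also higher in all 10. Of all genes 24.6% in WT and 16.5% in KO were higher in each labelled clone, and 25.0% and 17.5% were lower. A link between motifs and responses was not tested. A match to these letters is a description of the sequence, and binding was not measured.

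C1R and C1S, which encode the proteases of the first component, lie tail to tail on chromosome 12, C1S on the plus strand at chr12:7060718-7071032 and C1R on the minus strand at chr12:7080219-7092445 (GRCh38). C1S had the largest fold change of the 9 genes in both genotypes in edgeR. In WT this rank did not hold without the untreated library of WT replicate 4, when CFB was at 5.14 on the log2 scale. C1S reached at most 4.67 in the WT fits that left out 1 library. With DESeq2's shrunken log2 fold changes C3 (2.10) was above C1S (1.54) in WT, and CFB (2.50) and SERPING1 (1.71) were above C1S (1.38) in KO. Untreated WT clones held 15.1, 5.27, 10.3, 2.22 and 3.27 CPM of C1S in replicates 1 to 5, and after IFNγ they held 290, 78.4, 185, 60.1 and 60.9 CPM. In libraries labelled KO the values were 4.62, 0.626, 8.55, 4.91 and 11.6 CPM untreated and 72.5, 26.6, 150, 305 and 83.6 CPM after IFNγ. The treated and untreated ranges did not overlap in either genotype. The log2 fold change was 4.20 (SE 0.65, adjusted p = 0.00187, 18.3-fold) in WT and 4.39 (SE 0.79, adjusted p = 0.00736) in KO. In a bulk library, a larger share of expressing cells and more RNA per expressing cell cannot be told apart. The rise in WT was called in all 10 fits that left out a library, and the rise in KO in 2 of 10, those without the untreated or the treated library of KO replicate 2 (adjusted p from 0.00364 to 0.0281 over the 10). Without both libraries of KO replicate 3 the adjusted p was 0.0455, and with no filter on low counts it was 0.0366 in KO and 0.0141 in WT.

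C1R was the more abundant of the pair per length and had the smaller fold change. Its values in untreated WT clones were 85.4, 51.5, 60.4, 57.4 and 20.1 CPM, and after IFNγ 303, 191, 271, 200 and 96.1 CPM. Libraries labelled KO held 34.8, 5.51, 40.5, 58.7 and 80.7 CPM untreated and 126, 44.8, 167, 372 and 210 CPM after IFNγ. The WT ranges were apart, whereas in KO the treated library of replicate 2 fell among the untreated ones. C1R rose in WT by 1.93 on the log2 scale (SE 0.37, adjusted p = 0.00633), a call kept in the fits without the library of WT replicate 1 or 5 untreated or of WT replicate 5 after IFNγ, lost in the other 7 (adjusted p up to 0.0206) and lost without both libraries of WT replicate 4 (adjusted p = 0.0365). In KO the log2 fold change was 2.07 (SE 0.65, adjusted p = 0.0767), which did not pass. With the clone as a block, which compares each treated library with the untreated library of its own clone, C1R passed in both genotypes, at 1.97 (SE 0.08, adjusted p = 5.52e-08) in WT and at 2.18 (SE 0.23, adjusted p = 0.00131) in KO as labelled, and at 2.17 (SE 0.16, adjusted p = 4.80e-05) with KO replicates 4 and 5 exchanged. Clones that were low in C1R without IFNγ were also low with it: WT replicate 5 and KO replicate 2 had the lowest value of their group under both conditions.

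**Figure D1:**
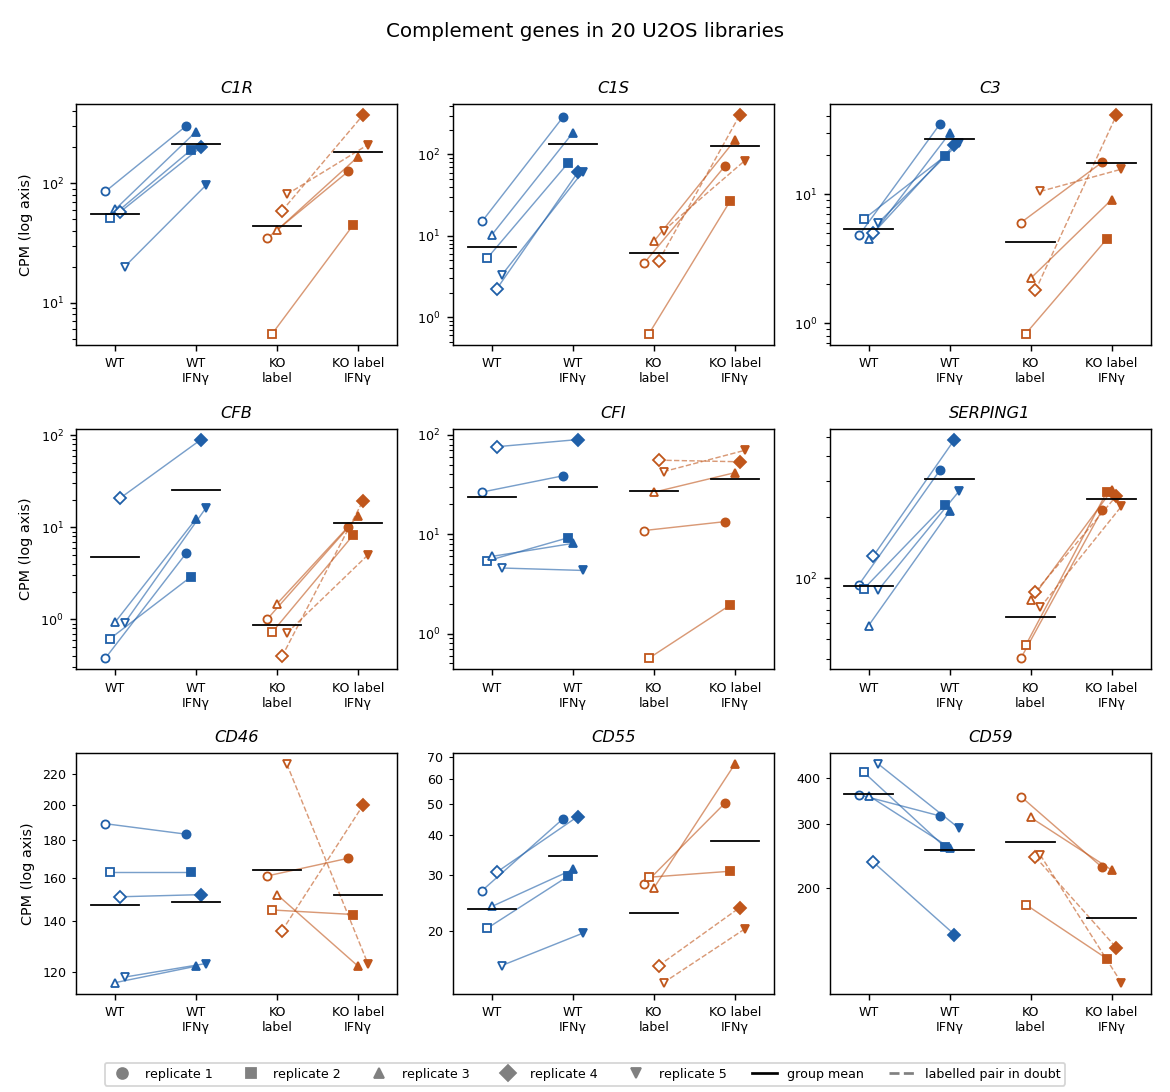
CPM of the 9 complement genes in each library on a log axis, open symbols untreated and filled symbols after IFNγ, with lines joining the libraries of a clone (dashed for KO replicates 4 and 5, whose labelled pairs are in doubt) and bars for the mean of 5 clones. C1R, C1S, C3, CFB and SERPING1 lie higher after IFNγ in every labelled clone, CD59 lies lower, and WT replicate 4 stands at 20.7 CPM of CFB before treatment.

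The proteins C1r and C1s act as pairs within the C1 complex, so the balance of their mRNAs was compared within each library, per kb of the gene length given in the table. The C1S to C1R ratio had a median of 0.167 in untreated WT clones (0.0443 to 0.172) and 0.599 after IFNγ (0.285 to 0.902). In libraries labelled KO it went from 0.140 (0.0862 to 0.208) to 0.563 (0.376 to 0.847). C1R thus remained the larger of the pair per length in all 20 libraries, with the closest approach in WT replicate 1 after IFNγ. The shift in the log2 ratio was 2.14 in WT and 2.05 in KO, with no overlap between treated and untreated libraries, and each had the smallest p that 5 against 5 libraries allow (two-sided exact permutation test, p = 0.00794, adjusted p = 0.0635 over 16 ratio tests). Neither ratio shift passed an adjusted p of 0.05, and full separation in these 2 tests alone could not have passed it over 16 tests. The test also does not pair the libraries of a clone, so it does not decide whether the ratio shifted. WT and KO clones did not differ detectably in the ratio with or without IFNγ (exact permutation p = 0.595 and 0.579).

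SERPING1 (chr11:57597685-57614848, plus strand) encodes C1 inhibitor, the serpin that inactivates C1r and C1s. It rose in both genotypes. In untreated WT clones it stood at 92.9, 88.6, 58.4, 129 and 87.5 CPM, and after IFNγ at 341, 230, 214, 483 and 270 CPM. Libraries labelled KO held 40.3, 46.7, 77.9, 85.8 and 71.9 CPM untreated and 216, 266, 271, 255 and 226 CPM after IFNγ. No treated library overlapped the untreated ones. SERPING1 changed by 1.73 on the log2 scale (SE 0.26, adjusted p = 0.00151) in WT and 1.94 (SE 0.20, adjusted p = 2.34e-04) in KO, and both calls held in all 10 fits that left out 1 library. The treated libraries labelled KO spanned 1.25-fold from lowest to highest, the narrowest range of the 5 responding genes in any group. The log2 fold change of the inhibitor was below that of C1S, and the SERPING1 to C1S ratio per length had medians of 22.9 before and 4.32 after IFNγ in WT and of 12.8 and 3.99 in KO. These shifts of -2.39 and -2.24 in the log2 ratio overlapped between treated and untreated libraries and did not pass over the 16 tests (exact permutation p = 0.0317 and adjusted p = 0.127 for each).

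**Figure D2:**
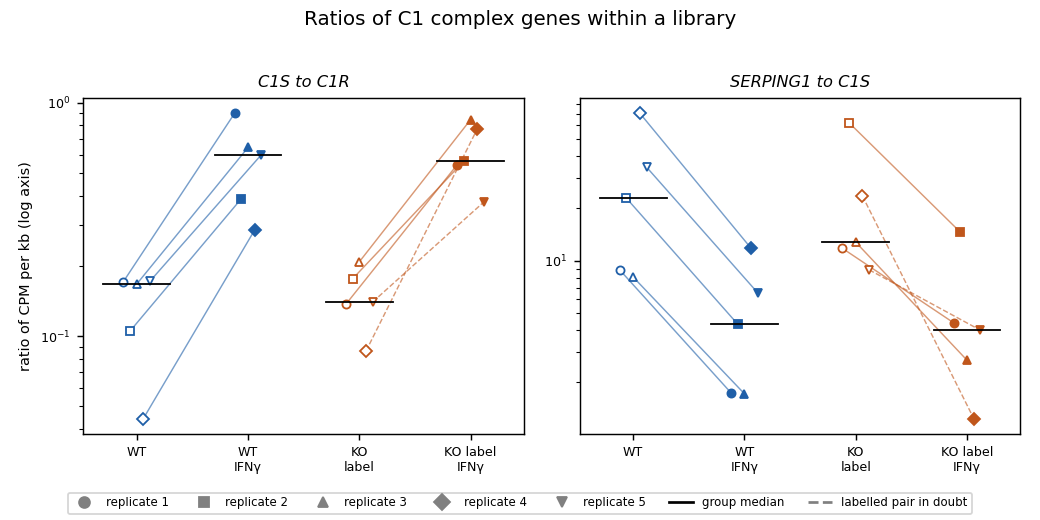
Ratios of C1S to C1R and of SERPING1 to C1S within each library (CPM per kb of gene length, log axis), with lines joining the libraries of a clone and bars for the median of 5 clones. The C1S to C1R ratio lies at or below 0.208 in all untreated libraries and at or above 0.285 in all treated ones, and the SERPING1 to C1S ratio is lower after IFNγ in every labelled clone with ranges that overlap.

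C3 (chr19:6677704-6720650, minus strand) encodes the component on which all pathways converge. WT clones were tightly grouped, with the lowest untreated library at 4.46, the median at 5.00 and the highest at 6.40 CPM, and with 34.9, 19.6, 29.6, 24.2 and 25.1 CPM after IFNγ, with no overlap. C3 rose in WT by 2.31 on the log2 scale (SE 0.18, adjusted p = 1.18e-05), the smallest adjusted p of the 9 genes, and the call held in all 10 fits without 1 library but not with all 20 libraries fitted together (adjusted p = 0.0137). Libraries labelled KO were more scattered, at 6.01, 0.827, 2.22, 1.79 and 10.5 CPM untreated and 17.6, 4.48, 9.06, 41.0 and 15.6 CPM after IFNγ. The treated libraries of KO replicates 2 and 3 overlapped the untreated range. The log2 fold change in KO was 2.04 (SE 0.73, adjusted p = 0.117) and did not pass. Under the clone block it was 2.14 (SE 0.52, adjusted p = 0.0269) as labelled, 2.18 (SE 0.22, adjusted p = 1.26e-04) with KO replicates 4 and 5 exchanged and 1.95 (SE 0.23, adjusted p = 0.00528) without these clones, and the last 2 of these were called. C3 was higher after IFNγ in all 10 clones.

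CFB (chr6:31946095-31952084, plus strand) encodes factor B, the protease that forms the alternative C3 convertase with C3b. Libraries labelled KO held 1.01, 0.726, 1.48, 0.395 and 0.710 CPM untreated and 9.99, 8.25, 13.3, 19.4 and 5.00 CPM after IFNγ, with no overlap. CFB rose in KO by 3.68 on the log2 scale (SE 0.44, adjusted p = 6.70e-04, 12.8-fold), and the call held in all 10 fits without 1 library but not with all 20 libraries fitted together (adjusted p = 0.0352). WT replicates 1, 2, 3 and 5 were as low untreated, at 0.379, 0.619, 0.932 and 0.921 CPM, and reached 5.27, 2.92, 12.4 and 16.2 CPM after IFNγ. WT replicate 4 stood apart, with 20.7 CPM untreated and 89.8 CPM after IFNγ, so that its untreated library was above the treated library of every other clone. Over all 5 WT clones the log2 fold change was 2.39 (SE 1.26, adjusted p = 0.273) and did not pass. Without both libraries of WT replicate 4 it was 3.69 (SE 0.58, adjusted p = 0.00645), which was called, and with the clone as a block it was 3.06 (SE 0.39, adjusted p = 0.00198), also called. Leaving out the untreated library of that clone alone gave 5.14 (adjusted p = 0.0144), and leaving out its treated library alone gave 0.95 (adjusted p = 0.692). The lowest CFB libraries rested on 23 counts. The ratio of CFB to C3 per length did not pass in either genotype, with log2 shifts after IFNγ of 0.42 in WT and 1.03 in KO (exact permutation p = 0.651 and 0.198), and neither did that of CFI to C3, with shifts of -1.84 and -1.43 (exact permutation p = 0.143 and 0.222).

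CFI (chr4:109730982-109801999, minus strand), which encodes the protease factor I, differed more between clones than with treatment. Untreated WT clones held 26.6, 5.38, 5.98, 76.1 and 4.57 CPM, and after IFNγ 38.8, 9.21, 8.09, 89.8 and 4.32 CPM. Libraries labelled KO ranged from 0.565 CPM (28 counts) in replicate 2 to 55.7 CPM in replicate 4 untreated, a 98.6-fold range, and from 1.93 to 69.9 CPM after IFNγ. The log2 fold change was 0.30 (SE 0.97, adjusted p = 0.898) in WT and 0.42 (SE 0.97, adjusted p = 0.848) in KO. Within clones the change was small and mostly upward, with 4 of 5 labelled clones higher in each genotype. Under the clone block it was 0.38 (SE 0.10, adjusted p = 0.00923) in WT and 0.59 (SE 0.21, adjusted p = 0.0869) in KO as labelled, and 0.55 (SE 0.16, adjusted p = 0.0249) with KO replicates 4 and 5 exchanged, when 5 of 5 KO clones were higher. All of these were under 2-fold.

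None of the 3 membrane regulators was called in either genotype, and their directions differed. CD59 (chr11:33703010-33736479, minus strand), a lipid-anchored protein that stops the assembly of the membrane attack complex, was lower after IFNγ in all 10 labelled clones. Its WT values were 360, 415, 358, 235 and 437 CPM untreated and 315, 259, 258, 149 and 291 CPM after IFNγ, and its KO values were 356, 180, 312, 243 and 246 CPM untreated and 228, 128, 224, 137 and 110 CPM after IFNγ. The ranges overlapped in both genotypes. The log2 fold change was -0.52 (SE 0.21, adjusted p = 0.152) in WT and -0.70 (SE 0.24, adjusted p = 0.107) in KO, and neither passed. With the clone as a block it was -0.53 (SE 0.06, adjusted p = 4.68e-05) in WT, -0.72 (SE 0.11, adjusted p = 0.00454) in KO as labelled and -0.72 (SE 0.09, adjusted p = 3.13e-04) with KO replicates 4 and 5 exchanged, past the adjusted p of 0.01 and under 2-fold. Regardless of fold, 34.3% of genes in WT, 7.12% in KO as labelled and 21.5% in KO exchanged passed this adjusted p under the block. Of its 8077 exonic bases, 3541 are shared with C11orf91 on the same strand, so reads there cannot be assigned to 1 of the genes.

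CD55 (chr1:207321678-207360966, plus strand), decay-accelerating factor, was higher after IFNγ in all 10 labelled clones. It stood at 26.8, 20.4, 23.9, 30.6 and 15.6 CPM in untreated WT clones and at 45.0, 29.7, 31.2, 45.7 and 19.7 CPM after IFNγ. Libraries labelled KO held 28.0, 29.5, 27.3, 15.6 and 13.8 CPM untreated and 50.4, 30.8, 66.7, 23.7 and 20.3 CPM after IFNγ. The groups overlapped, and the log2 fold changes of 0.53 (SE 0.24, adjusted p = 0.203) in WT and 0.74 (SE 0.35, adjusted p = 0.226) in KO did not pass. The clone block gave 0.51 (SE 0.06, adjusted p = 6.21e-05) in WT, and in KO 0.67 (SE 0.16, adjusted p = 0.0251) as labelled and 0.67 (SE 0.15, adjusted p = 0.0086) exchanged, all under 2-fold. Its exons share 180 bases with LOC107985251 on the opposite strand, and the strand setting of the counting is not given in the sources used here. CD46 (chr1:207752038-207795516, plus strand), the cofactor for factor I on the cell surface, was the steadiest member in WT. Its untreated values there ran from 116 to 189 CPM and its treated values from 122 to 183 CPM, and no WT clone changed by more than 0.07 on the log2 scale. The log2 fold change of CD46 was -0.01 (SE 0.16, adjusted p = 0.990) in WT and -0.12 (SE 0.18, adjusted p = 0.741) in KO. The 2 clones with the largest CD46 changes were KO replicates 4 (0.55) and 5 (-0.89), and with their treated libraries exchanged the KO changes ran from -0.32 to 0.07.

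Across the 9 genes, IFNγ raised 4 in WT (C1R, C1S, C3 and SERPING1), where 2.48% of the 19522 genes tested were called higher, and 3 in KO (C1S, CFB and SERPING1), where 1.70% of 19385 were. No member was called lower, as 0.512% and 0.258% of genes were. The same genes were those whose treated libraries all lay above the untreated ones, as for 7.27% of genes in WT and 6.05% in KO. With the clone as a block 5 were called in WT (CFB as well), against 4.44% of genes called higher, and 4 in KO as labelled (C1R as well), against 2.71%. With KO replicates 4 and 5 exchanged the same 5 genes were called in KO as in WT, against 3.83%. Without the clones KO replicates 4 and 5 and without a block, none was called in KO (21 genes called higher of 19633), while 5 had an unadjusted p under 0.05, as had 13.1% of genes. Without both libraries of KO replicate 3, CFB and SERPING1 were called in KO, where 147 of 19371 genes were called higher. In both genotypes 6 members (C1R, C1S, C3, CFB, SERPING1 and CD55) were higher in each labelled clone, as were 24.6% of genes in WT and 16.5% in KO, and 1 (CD59) was lower in each, as were 25.0% and 17.5%. The median log2 fold change over the members was 1.73 in WT and 1.94 in KO, against -0.03 over all genes tested in either genotype. DESeq2 called the same 4 members in WT, where it called 3.63% of genes higher, and 4 in KO, C1R besides the 3, where it called 3.16%.

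**Figure D3:**
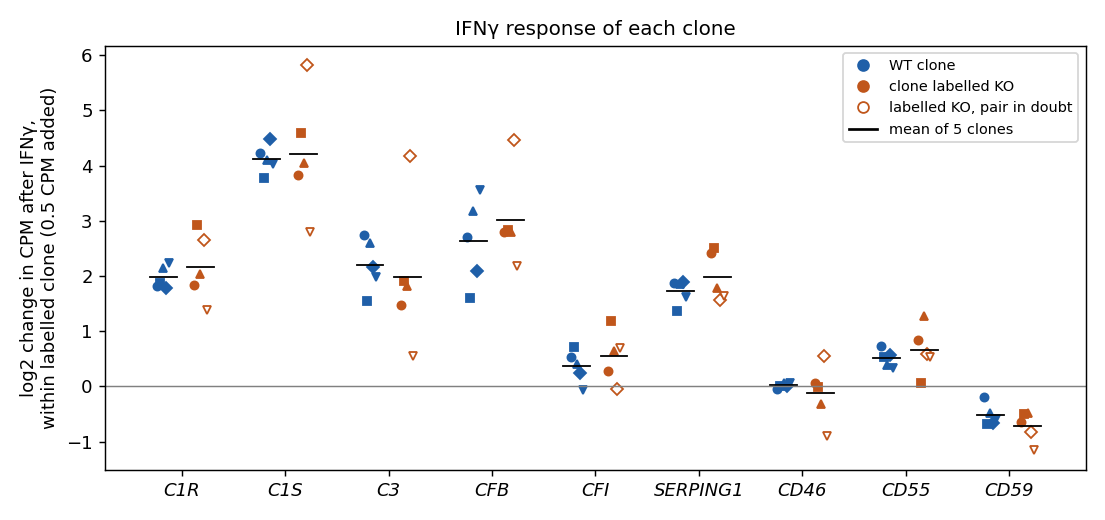
Change of each gene within each labelled clone, as log2 of CPM after IFNγ over CPM untreated with 0.5 CPM added, with bars for the mean of 5 clones and open symbols for KO replicates 4 and 5. C1S averages 4.12 in WT and 4.22 in KO clones, CD46 lies near 0, CD59 is below 0 in all 10 clones, and the open symbols mark the highest and lowest KO values of C1S and C3.

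The size of the response within clones was compared between genotypes for each gene. C1S rose by 4.12 ± 0.26 (SD, n = 5) on the log2(CPM + 0.5) scale in WT clones and by 4.22 ± 1.10 in clones labelled KO. The KO spread came down to 0.38 when the treated libraries of replicates 4 and 5 were exchanged, with the mean unchanged by construction. Since the exchange was chosen from these libraries, the smaller spread is not independent evidence for it. The mean response of C3 was 2.21 ± 0.48 in WT and 1.99 ± 1.34 in KO (SD 0.50 exchanged), and that of SERPING1 was 1.72 ± 0.23 and 1.98 ± 0.44 (SD 0.46 exchanged). That of CFB was 2.63 ± 0.79 and 3.02 ± 0.86 (SD 0.58 exchanged), on a scale that understates the change of this low gene. The differences between genotypes ranged from -0.39 (CFB) to 0.22 (C3), the ranges of the clones overlapped for all 9 genes, and the exact permutation p ran from 0.254 to 0.810 as labelled and from 0.0952 (CD46) to 0.643 (C1S) with KO replicates 4 and 5 exchanged. The interaction of genotype and treatment in edgeR called 0 of the 9 members and 0% of 21052 genes at an adjusted p under 0.01. None of the 9 had an unadjusted p under 0.05, DESeq2 gave the same, and 86 of the 21052 genes did in edgeR. This fit does not pair the libraries of a clone. For CFB the difference was -1.30 (SE 1.40), and without both libraries of WT replicate 4 it was -0.01 (SE 0.74). With the clone as a block, 0 members and 0 of 21052 genes were called, as labelled and with KO replicates 4 and 5 exchanged. Exchanged, the differences ran from -0.55 (CFB, SE 0.48) to 0.17 (CD59, SE 0.12), with C1S at -0.15 (SE 0.22). The block without these clones gave -0.51 for SERPING1 (SE 0.17, edgeR unadjusted p = 0.0105). It was the 1 member with a p under 0.05, as had 576 of 21718 genes.

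WT clones and clones labelled KO were also compared directly. After IFNγ 0 of the 9 genes were called, where 0.0155% of 19383 genes were, and without IFNγ 0 of the 9, where 0.0154% of 19505 were. With same-numbered WT and KO clones as a block, a number that does not mark a shared clone, these were 0 of 9 against 0.0103% and 0 of 9 against 0.00513%. Without KO replicate 3, whose ZBTB48 mRNA was high, 0 of 9 were called with and 0 of 9 without IFNγ, against 3 of 19752 and 2 of 19829 genes. After IFNγ 1 member had an unadjusted p under 0.05, as had 4.35% of genes. This was CD59, which stood at 254 ± 63.7 CPM (SD, n = 5) in WT and 165 ± 56.2 CPM in KO. Its log2 fold change was 0.62 (SE 0.24, adjusted p = 0.996 in edgeR). DESeq2 also gave 1 of 9 such members after IFNγ (5.27% of genes), and without it 0 of the 8 with a p (5.72% of genes), since it gave none for CFB. Without IFNγ CFB was the 1 such member in edgeR, as were 4.79% of genes, with a log2 fold change of 2.47 (SE 1.07, adjusted p = 0.980), which became -0.28 without the untreated library of WT replicate 4. Both CD59 and CFB overlapped between genotypes. C3 was 0.58 higher in WT after IFNγ (SE 0.46, adjusted p = 0.996), and 1.38 higher (SE 0.39, adjusted p = 0.911) without KO replicates 4 and 5. CFB after IFNγ differed by 1.16 (SE 0.79), again with WT replicate 4 as the highest library, and by -0.28 without it. The other differences ranged from -0.31 to 0.51, with standard errors of 0.17 to 0.99.

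**Figure D4:**
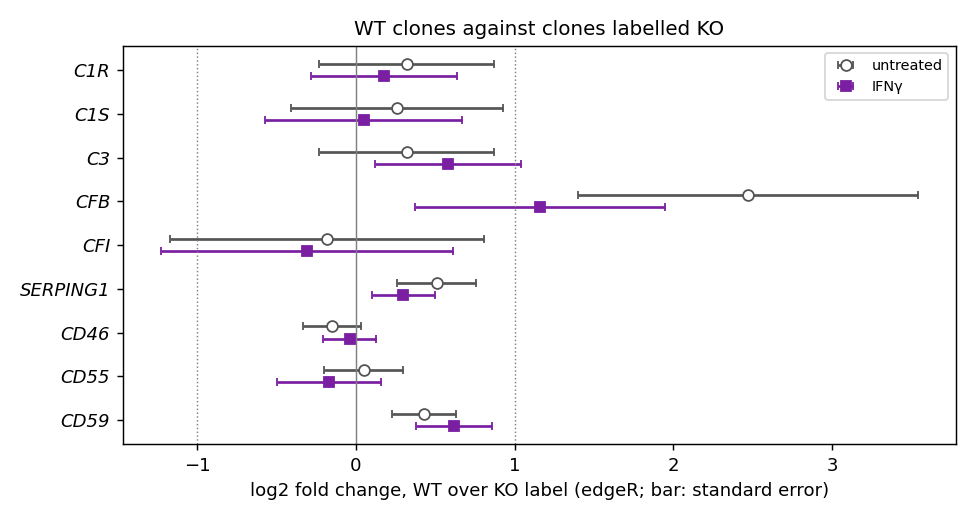
Log2 fold change of WT over KO label for the 9 genes without and with IFNγ, with standard errors from edgeR and dotted lines at a 2-fold difference. No gene was called, and CFB without IFNγ lies farthest from 0 at 2.47 with 1 WT clone behind it.

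The genes were ordered by their mRNA level per kb of gene length without and with IFNγ. In untreated WT clones SERPING1 (48.9 ± 13.5 CPM per kb, SD, n = 5), CD59 (44.7 ± 9.71) and CD46 (43.2 ± 9.05) led, and these neighbours overlapped. The level and place of CD59 are uncertain in every group, since 3541 of its 8077 exonic bases are shared with C11orf91. C1R followed at 21.1 ± 8.96, with all of its libraries below those of CD46. CFI, CD55, C1S, CFB and C3 came next, from 8.54 down to 1.02, each overlapping its neighbour. The CFB mean of 1.90 rests on WT replicate 4 at 8.34, and in the other clones CFB was between 0.153 and 0.377, below C3. After IFNγ SERPING1 led in WT at 165 ± 58.6, before C1R (81.3 ± 30.7), C1S (48.7 ± 36.5), CD46 (43.5 ± 7.72) and CD59 (31.5 ± 7.88), and C3 (5.10 ± 1.11) and CD55 (4.69 ± 1.51) were last. Neighbours in this order overlapped. The place of CFB above C3 again rests on WT replicate 4, at 36.3 against a group mean of 10.2. In the other treated WT clones CFB was between 1.18 and 6.53. Clones labelled KO gave the same first 6 genes after IFNγ, led by SERPING1 at 132 ± 13.2, with CD46 (44.4 ± 9.76) apart from CD59 (20.5 ± 6.95). As a share of all counts, C1R and C1S together had a median of 0.00643% in untreated and 0.0262% in treated WT libraries, and the 3 membrane regulators 0.0575% and 0.0422%.

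For the genes called in both genotypes the nearest genes in profile were sought by the root mean square difference of log2 CPM, each gene centred on its mean over the 20 libraries, among 21052 genes. Nearest to C1S were ISG20 (0.81), TMEM229B (0.85) and CASP1 (0.85), and C1R was in place 61 at 1.20. Nearest to SERPING1 were STAT2 (0.32), HLA-C (0.33) and IFITM3 (0.35), and the nearest other complement gene of the 9 was CD55 in place 2225 at 0.88. These distances describe the 20 libraries, and how much of them comes from treatment and how much from differences between clones was not measured.

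The rest of the pathway was followed in 48 other complement genes, of which 24 passed the filter on low counts in WT and 21 in KO. Without a block edgeR called 0 of the 24 in WT, where 2 had an unadjusted p under 0.05 against 24.9% of all genes, and 0 of the 21 in KO, where 6 had against 23.5%. DESeq2 called 1 in WT (C2) and 3 in KO (C2, C4A and C4B), against 3.63% and 3.16% of all genes called higher. With the clone as a block edgeR called 3 of the 24 in WT and 3 of the 21 in KO, against 4.44% and 2.71% of all genes called higher, and these were the same genes, C2, C4A and C4B. C2 and C4 form the convertase of the classical pathway, and their genes flank CFB on chromosome 6. Under the block C2 rose by 2.68 (SE 0.13, adjusted p = 3.81e-08) in WT and by 2.85 (SE 0.24, adjusted p = 4.08e-04) in KO, and C4A by 2.20 (SE 0.21) and 2.77 (SE 0.41). With KO replicates 4 and 5 exchanged the KO values were 2.84 (SE 0.19) for C2 and 2.73 (SE 0.14) for C4A. C4A and C4B have 88.4% of their 100-base exonic windows in common, so their counts are uncertain and are not compared with each other. Under the exchange C5AR1, a receptor for the C5 fragment C5a, was the fourth gene called in KO, at 1.14 (SE 0.24, adjusted p = 0.00479). Of the 13 initiator genes 5 were tested and 0 called, and of the 7 terminal pathway genes 3 were tested in WT and 1 in KO with 0 called. Between WT and KO clones 0 of the 22 genes tested were called with IFNγ and 0 of 22 without it, where 3 and 1 had an unadjusted p under 0.05 in edgeR (4.35% and 4.79% of all genes). DESeq2 also called 0, with 4 of 22 and 1 of 20 under that value, the other 2 having no p (5.27% and 5.72% of all genes).

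**Figure D5:**
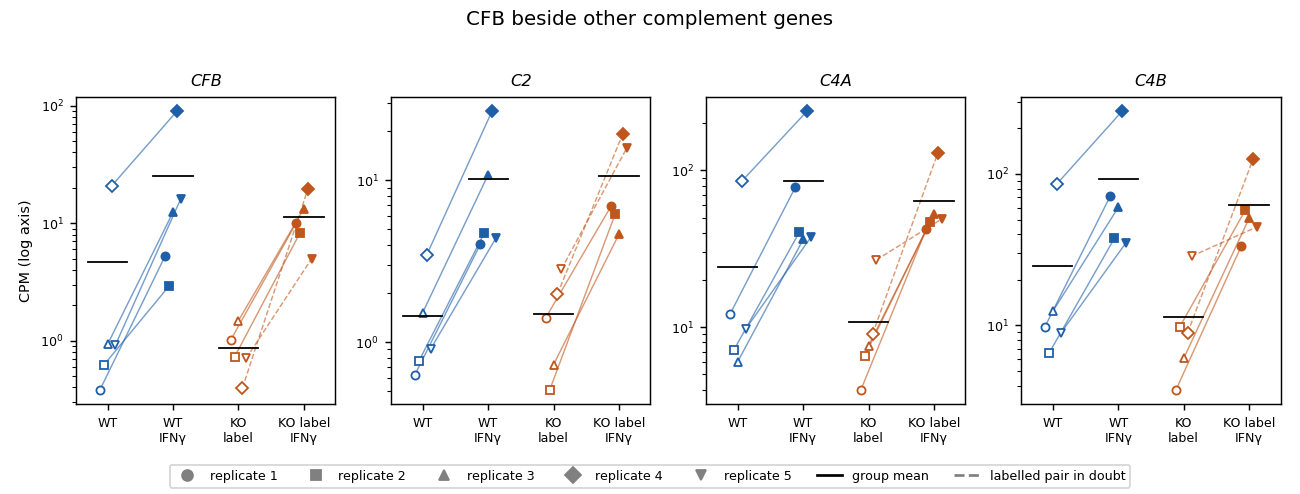
CPM of CFB and of 3 other complement genes in each library on a log axis, open symbols untreated and filled symbols after IFNγ, with lines joining the libraries of a clone (dashed for KO replicates 4 and 5) and bars for group means. WT replicate 4 is the highest untreated library for all 4 genes, and every labelled clone is higher after IFNγ.

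The genes of C1q, which did not pass the filter on low counts, were singled out after their values were seen, since C1r and C1s act bound to C1q. C1QC had 0 counts in all 20 libraries, C1QA at most 1 and C1QB at most 7, whereas C1R and C1S reached 20593 and 16882 counts. WT replicate 4 and KO replicate 2 stood at the end of their group for several of the 9 genes. Before treatment WT replicate 4 was the highest of the 5 WT clones in CFB, CFI, SERPING1 and CD55 and the lowest in C1S and CD59. KO replicate 2 was the lowest of the untreated libraries labelled KO in C1R, C1S, C3, CFI and CD59, at 5.51, 0.626, 0.827, 0.565 and 180 CPM, and its changes after IFNγ were 2.92, 4.59 and 1.91 on the log2(CPM + 0.5) scale in C1R, C1S and C3, above the range of the WT clones for C1R and C1S and within it for C3. Without both libraries of KO replicate 2, C1R in KO had an adjusted p of 0.0101 and C1S of 0.00126.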

How the data were processed

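Stranded mRNA libraries of U2OS clones were sequenced, and the submitters' processing notes name STAR 2.7.9a, featureCounts 2.4.0 and GRCh38. The authors deposited 1 table of raw read counts per gene and library, with each gene's length, coordinates and no normalization, and 0 of its rows lacked a gene name. Uniquely aligned reads were counted over RefSeq genes. The strand setting of featureCounts is not given in the sources used here. The gene length column served only for CPM per kb.

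The 20 columns were assigned to groups of 5 clones by their labels. Each comparison was fitted on its 10 libraries, and the difference between responses on all 20, with edgeR 4.0.16 in R 4.3.3 (TMM, filterByExpr with default settings, robust quasi-likelihood test, Benjamini-Hochberg adjustment over all genes tested), and tested on simulated data. The SE of a log2 fold change is its size divided by the square root of F. Positive values mean higher after IFNγ or higher in WT. Log ratios and clone responses, on log2(CPM + 0.5), were compared by two-sided exact permutation tests, where 5 against 5 libraries give 252 permutations and a smallest p of 0.00794. The study names DESeq2, and DESeq2 1.42.0 was an alternative. The others were size factors, library totals, no filter, all libraries fitted together, other cut-offs and pseudocounts, the clone block and leaving out libraries. All 10 libraries of a genotype carry clone names that pair the untreated and treated library, and deviations of the pairs correlated at r of 0.69 to 0.88 except in KO replicates 4 and 5 (0.02 and 0.09). The block was kept as an alternative, since the study's methods name none. No 2 libraries of a group agreed within sampling noise. The floor of 3 counts covers counting error only.

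All 9 members, ZBTB48 and IRF1 were named in every comparison. Of 48 other complement genes those called in any comparison were named, and for members called in both genotypes the 3 genes nearest in profile. Members, lists and tests were chosen with earlier results of these data known. A listed complement gene and a treatment check are not reported here. The other assays of the study were not analysed here.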

Additional observations from a re-analysis of the deposited data

Results flagged for a closer look

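Among the 36 groups of 5 libraries that the 9 genes make, 2 held a library set apart from the other 4 beyond Dixon's 95% critical value of 0.71 for 5 samples, where chance gives about 1.8. CFB in the untreated library of WT replicate 4 stood at 20.7 CPM, with a gap to the next library of 0.847 of the range. CD59 in the treated library of WT replicate 4 was the lowest of its group at 149 CPM, with a gap of 0.732 of the range.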

How the results depend on the processing

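The limits are those of 5 clones a group that differ widely before treatment. Of 1371 recomputed values for single genes and ratios, 1251 kept their direction and side of the threshold, 26 no longer passed, 11 newly passed and 83 changed sign. Each change of sign was in a difference that had not passed. DESeq2 with normal shrinkage was not run for the difference between responses.

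The count of members called after IFNγ in WT, 4, was 2 with no filter (C1R and C1S lost) and 2 with all 20 libraries fitted together (C1R and C3 lost), 5 with the replicate block, and 3 to 4 without 1 library. In KO, 3 were called, 2 with no filter (C1S lost), 2 with all 20 libraries fitted together (CFB lost), 2 to 3 without 1 library, 4 with the block as labelled, 5 with the replicate block and replicates 4 and 5 exchanged, 5 with the block and without these clones, an alternative chosen after seeing the data, and 0 without these clones and without a block. The causes were not tested, and the fits without these clones also rest on fewer libraries. Between WT and KO, whose numbers mark different clones (r from -0.25 to 0.27 over the 10 same-numbered pairs, and 1 of these, replicate 3 untreated, was the best match of its WT library), the replicate block left 0 members called in either treatment and moved the calls over all genes from 3 to 2 after IFNγ and from 3 to 1 without it. The block changed no other call than those given with the genes. Over all genes, 585 were called in WT and 1414 with the block, and 379 in KO, 721 with the block and 1208 with the block and the exchange. DESeq2 called 976 in WT, and in KO 823 (613 with shrinkage). With all 20 libraries fitted together 642 were called in KO, and without 1 untreated library of KO replicate 1, 3, 4 or 5 between 203 and 241. Without both libraries of KO replicate 3 the count was 160, and without KO replicates 4 and 5 it was 22. Between WT and KO, DESeq2 called 16 after IFNγ and 12 without it (6 and 5 with shrinkage), the joint fit 6 and 5, the fit with no filter 5 and 5, and the fit without the treated library of KO replicate 1 called 5. At an adjusted p under 0.05 with the fold cut-off 4 members were called in WT and 3 in KO. The ratios that passed an adjusted p of 0.05 numbered 0, and 0 to 3 without 1 library, with 3 reached without the treated library of KO replicate 2.

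Signs that changed are given as log2 values. After IFNγ in WT, CFI ran from -0.70 to 1.48 and CD46 from -0.08 to 0.10 without 1 clone or library, and CD46 was 0.00 with no filter and 0.00 with the replicate block. In KO, CD46 ran from -0.24 to 0.03. For treated WT against KO the ranges without 1 library were -0.07 to 0.61 (C1R), -0.42 to 0.67 (C1S), -0.28 to 1.47 (CFB), -1.30 to 0.10 (CFI), -0.12 to 0.08 (CD46) and -0.33 to 0.11 (CD55), and without KO replicates 4 and 5 CFI was 0.68 and CD46 0.05. For untreated WT against KO they were -0.21 to 0.63 (C1S), -0.28 to 2.76 (CFB), -1.36 to 0.25 (CFI) and -0.09 to 0.16 (CD55), and without those clones CFI was 0.92 and CD55 -0.26. For the difference between responses they were -0.48 to 0.27 (C1R), -0.68 to 0.41 (C1S), -0.39 to 0.84 (C3), -2.75 to 1.45 (CFB), -1.11 to 1.06 (CFI), -0.04 to 0.22 (CD46) and -0.41 to 0.06 (CD55), and C1S was 0.05 without KO replicates 4 and 5. For the clone responses they were -0.38 to 0.00 (C1R), -0.46 to 0.30 (C1S), -0.14 to 0.77 (C3), -0.05 to 0.31 (CD46) and -0.30 to 0.00 (CD55), and C1S was 0.01 with 2 CPM added. The CFB to C3 ratio ran from -0.30 to 1.27 after IFNγ in WT (-0.06 with 2 CPM added) and from -0.86 to 0.32 between untreated WT and KO (0.10 with 2 CPM added). Between WT and KO the C1S to C1R ratio ran from -0.47 to 0.07 untreated and from -0.39 to 0.02 treated, and the SERPING1 to C1S ratio from -0.24 to 0.65 and from -0.36 to 0.53.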
